A study of Mus musculus with 6 samples.

Results

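Voltage-gated sodium and calcium channels were examined in 2 fractions of neonatal mouse cerebellar cells, A+/G+ and A-/G+. The members were probes of the array whose annotated gene name belongs to the Scn alpha and beta subunits or to the Cacna1, Cacna2d or Cacnb subunits. They were 48 of 55681 probes, which represent 29 of the 34836 gene names on the array, 11 of sodium channels with 18 probes and 18 of calcium channels with 30 probes. Membership follows the gene name and not a measured value. Both fractions were taken from wild-type cerebellum, for which the labels give the strain CD1 and postnatal days 1 to 3, while the study's methods name a C57BL/6 background and a younger age. The names stand for GLAST (G), a glutamate transporter of astroglia, and for the presence (A+) or absence (A-) of ACSA-2 (A), an epitope of the sodium pump subunit Atp1b2. Per the study's methods the magnetic sorts differed: A+/G+ cells were retained with beads against ACSA-2 alone, whereas A-/G+ cells were retained with beads against GLAST after a column had removed cells with ACSA-2 or with antigens of neurons (L1CAM, PSA-NCAM), leukocytes (CD45) and red blood cells. Each fraction had 3 biological replicates of 50000 cells with 1 array each, and neither fraction was treated. A fraction is a mixture of the cells that the beads retained, so that the share of a cell type and its RNA per cell cannot be told apart.

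A voltage-gated sodium or calcium channel is built around a large pore-forming subunit, alpha in sodium and alpha1 in calcium channels, which opens when the membrane depolarizes. Smaller partners set where and how it works: sodium channel beta subunits are membrane proteins with an immunoglobulin fold that bind the pore subunit and neighbouring cells, calcium channel beta subunits sit in the cytoplasm and carry the pore subunit to the membrane, and alpha2delta subunits lie on the outer face. In the cerebellum these channels are best known from Purkinje cells and other neurons.

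The probes that carry the main differences are shown first. Those of Scn2b (chr9:44937945-44938004 of mm9, plus strand) and Scn4b (chr9:44962045-44962104, plus strand) are given by their first 30 bases of 60.
Scn2b: gttctttatgctttttaggggagaacccag
Scn4b: ttcctatctaactttataggcaatacagtg

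Scn2b and Scn4b are direct neighbours: their probes begin 24100 bases apart on chromosome 9, and 0 protein-coding genes lie between them in the RefSeq table of GRCm38.p6. The 250 bases before each start differ in composition, with 38.4% G and C for Scn2b (chr9:45117626-45117875, plus strand) and 66.0% for Scn4b (chr9:45138374-45138623, plus strand). Both are shown from RefSeq (GRCm38.p6) because these neighbours both had a higher signal in A+/G+.
Scn2b promoter: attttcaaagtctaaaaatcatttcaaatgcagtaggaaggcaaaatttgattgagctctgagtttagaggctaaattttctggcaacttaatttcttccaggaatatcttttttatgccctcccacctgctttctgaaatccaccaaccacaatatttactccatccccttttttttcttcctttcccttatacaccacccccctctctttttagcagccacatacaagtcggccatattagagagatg
Scn4b promoter: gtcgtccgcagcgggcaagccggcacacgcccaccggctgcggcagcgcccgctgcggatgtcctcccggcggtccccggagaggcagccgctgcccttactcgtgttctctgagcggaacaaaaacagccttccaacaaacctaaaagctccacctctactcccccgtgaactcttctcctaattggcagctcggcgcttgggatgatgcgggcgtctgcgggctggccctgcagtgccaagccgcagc

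Searched on both strands, neither of these stretches holds TATAAA (the TATA box, found in 12.4% of all 32851 promoters), GGGCGG (the GC box, 32.7%) or AGGTCA (a motif of nuclear receptors such as Rora, 14.0%). Among the 32 promoters listed for 23 member genes, 1 holds TATAAA, 13 hold GGGCGG and 2 hold AGGTCA.

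The A-/G+ arrays were dimmer. Of all probes, 18340 to 24730 were well above background (the scanner software's mark for a spot clearly brighter than its surroundings) on an A-/G+ array and 26476 to 26655 on an A+/G+ array, with the brightest A-/G+ array that of replicate 3. Since the fractions lay on separate slides with separate scans, an effect of the slide or scan and one of the fraction cannot be told apart. Signals below are log2 intensities after quantile normalization, each gene has the value of its brightest probe, and differences are A+/G+ minus A-/G+. Atp1b2, which carries the ACSA-2 epitope, differed by 2.16 (adjusted p = 0.00725, limma with Benjamini-Hochberg adjustment over all probes), and Slc1a3, which encodes GLAST, by -1.19 (adjusted p = 0.0733).

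At both limits of the study, an adjusted p up to 0.05 and a 4-fold distance or more between the medians, 1 of 29 channel genes, Scn4b, was called for A+/G+, and 0 were called for A-/G+. By the same rule limma called 1.93% of all gene names for A+/G+ and 0.425% for A-/G+. Without the limit on fold, 4 channel genes were higher in A+/G+ (Scn4b, Scn2b, Scn4a and Cacna2d3) against 5.63% of all gene names, and 1, Cacnb3, was higher in A-/G+ against 4.82%. At an unadjusted p under 0.05 the counts were 6 and 4, beside 12.6% and 13.4% of all gene names. Leaving out 1 array moved the counts of 4 and 1 to 2 and 0 (without A+/G+ replicate 1), 3 and 0 (without A+/G+ replicate 2 or 3), 2 and 1 (without A-/G+ replicate 2) and 6 and 5 (without A-/G+ replicate 3). With normexp background correction 0 channel genes reached both limits, since the medians of Scn4b then lay under 4-fold apart. The median difference over the 29 genes was 0.19, beside -0.05 over all gene names. Of the 29 means, 18 were higher in A+/G+, beside 13794 of the 34836 gene names. The median over the 29 genes was 0.48 without A-/G+ replicate 2 and 0.31 without A-/G+ replicate 3. With the arrays shifted to a common 75th percentile instead of quantile normalization, the median over the 29 genes was 0.03 beside -1.02 over all probes, 16 of the 29 means were higher in A+/G+, and the probes called over the whole array split 604 to 938 in place of 851 to 222. By probes, 1 of 48 was higher in A+/G+ at both limits (1.53% of all probes) and 0 in A-/G+ (0.399%).

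**Figure D1:**
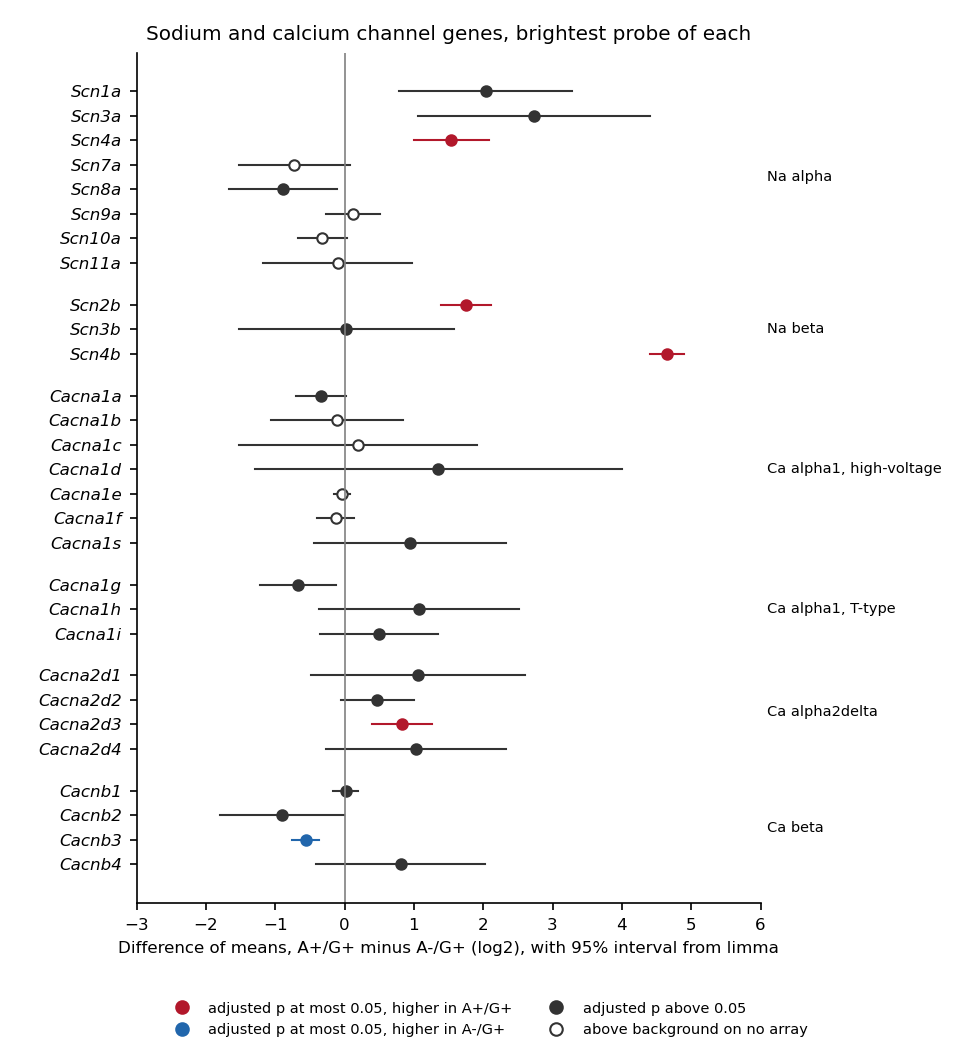
Difference of means between A+/G+ and A-/G+ (log2, horizontal axis) for the brightest probe of each of the 29 channel genes, with the 95% interval from limma as a line. Red and blue points passed an adjusted p of 0.05, open points were well above background on no array, and the 2 red points of the sodium channel beta subunits lie farther to the right than those of Scn4a and Cacna2d3.

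The sodium channel beta subunits held the clearest differences: 2 of the 3 genes were higher in A+/G+, and the median difference was 1.75. Scn4b encodes the subunit that is known for the resurgent sodium current of Purkinje cells. Its signal in replicates 1, 2 and 3 was 6.52, 6.81 and 6.78 for A+/G+ and 2.04, 2.01 and 2.09 for A-/G+. The fractions lay far apart, and the probe was well above background throughout A+/G+ and never in A-/G+. The means differed by 4.65 (standard error 0.096, 95% interval 4.41 to 4.90, adjusted p = 0.00115, limma). Since the A-/G+ level was not measured above background, the A+/G+ mean was also set against an averaged A-/G+ limit. It lay 3.56-fold above that limit. On each array the limit is the weakest signal that any probe well above background had there, or the Scn4b signal if stronger. It is not a strict bound, because some probes above it were not well above background. On A-/G+ replicate 1, where the limit was 5.64, Cacna1a was such a probe at 7.4. The size depends on the background step: the medians of Scn4b lay 26.6-fold apart as normalized here and 2.73-fold with normexp, which adds an offset of 50 to every spot.

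Scn2b binds the pore subunit through a disulfide bridge, as does Scn4b. Its signal was 7.99, 7.89 and 7.76 in A+/G+ and 5.88, 6.16 and 6.33 in A-/G+, where 2 of 3 arrays were well above background. The fractions did not overlap. The means differed by 1.75 (standard error 0.14, 95% interval 1.39 to 2.12, adjusted p = 0.00669, limma), while the medians were 3.31-fold apart and so under the 4-fold limit. Scn3b, a beta subunit best known from developing brain, had a signal of 8.66, 7.97 and 8.00 in A+/G+ and 7.59, 7.54 and 9.44 in A-/G+. The fractions overlapped, because the highest and the lowest of the 6 values were both in A-/G+, and the difference was 0.02 with an interval of -1.53 to 1.57 (adjusted p = 0.987, and 0.65 with an adjusted p of 0.205 without A-/G+ replicate 3). For both Scn4b and Scn2b the exact permutation test over arrays gave a two-sided p = 0.1, the lowest value possible with 3 arrays a fraction. Scn4b and Scn2b also passed the adjusted p of 0.05 whichever array was left out.

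**Figure D2:**
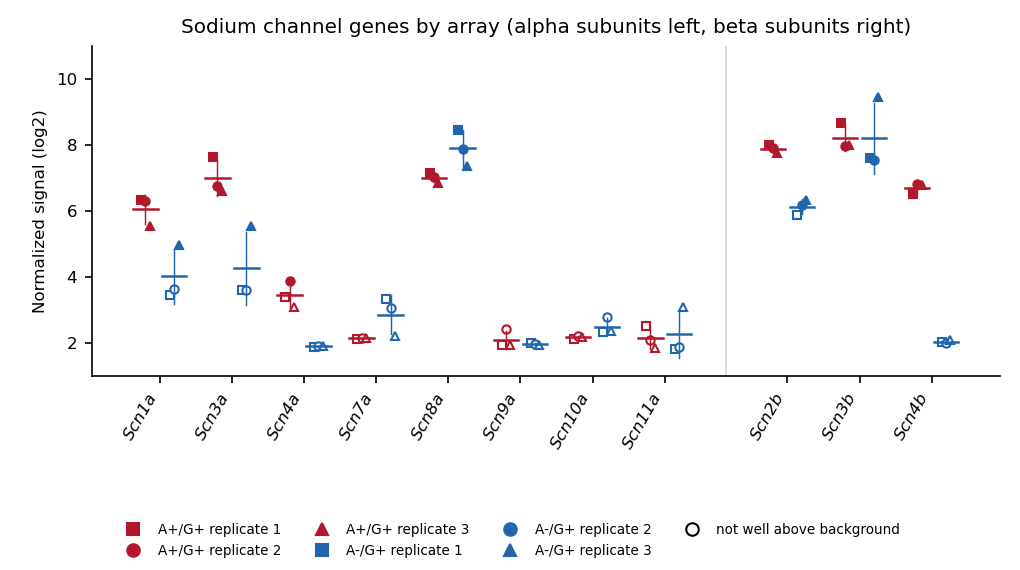
Normalized signal (log2, vertical axis) of the 11 sodium channel genes on each array, A+/G+ in red and A-/G+ in blue, with the mean and SD of each fraction (n = 3) as lines. Open symbols were not well above background, and for Scn4b all 3 A-/G+ arrays are open symbols between 2.01 and 2.09, below the A+/G+ arrays at 6.52 to 6.81.

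Among 8 pore-forming alpha subunits, 1 passed the adjusted p, and the median difference was 0.01. Scn4a, the subunit of skeletal muscle, had a signal of 3.38, 3.87 and 3.09 in A+/G+ and 1.89, 1.92 and 1.91 in A-/G+. These values did not overlap (difference 1.54, standard error 0.21, adjusted p = 0.0196, limma), but of all arrays only 1, from A+/G+, had a Scn4a spot well above background, so no fold is given. Its adjusted p was 0.549 with the 75th percentile shift, 0.0693 with normexp, 0.0512 with the methods' t-test and 0.0559 to 0.0762 without A+/G+ replicate 1, A-/G+ replicate 1 or A-/G+ replicate 2, each in turn.

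Scn3a and Scn1a, the subunits of embryonic and of inhibitory neurons respectively, had medians more than 4-fold apart without passing the adjusted p. The brightest Scn3a probe gave 7.63, 6.74 and 6.61 in A+/G+ and 3.62, 3.61 and 5.55 in A-/G+, with medians 8.72-fold apart (difference 2.74, 95% interval 1.07 to 4.41, adjusted p = 0.0704, limma). Scn1a gave 6.32, 6.30 and 5.55 in A+/G+ and 3.47, 3.62 and 4.96 in A-/G+, with medians 6.38-fold apart (difference 2.04, 95% interval 0.79 to 3.29, adjusted p = 0.0713). In both genes A-/G+ replicate 3 was the highest of its fraction and the only A-/G+ array well above background. Without that array the difference was 3.38 for Scn3a (adjusted p = 0.0148) and 2.51 for Scn1a (adjusted p = 0.0173), both past both limits, which makes 3 channel genes called in place of 1.

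Scn3a had 5 probes, more than any other member, and they did not give 1 answer. All lie on the minus strand of chromosome 2 in mm9, and the order below runs from upstream to downstream, with AATAAA, the hexamer of polyadenylation signals, in capitals where a probe holds it. Each is shown by 30 of its 60 bases.
Scn3a at chr2:65346334-65346393: tactggacagcttccgccagaggtgataat
Scn3a at chr2:65332960-65333019: agagtttagcagtgagtcagaactggaaga
Scn3a at chr2:65297940-65297999: tccactttctggatggtgttagcttacaag
Scn3a at chr2:65296320-65296379: gtttgtcaaAATAAAgactagttaaaagca
Scn3a at chr2:65295675-65295734: gagaaagaacacctctgaaagatacctttc

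The brightest probe of Scn3a is the one that holds AATAAA, a hexamer found in 5 of the 48 member probes and in 10.1% of all probes of the array. The probe 1620 bases upstream of it gave a difference of 3.41 (95% interval 0.98 to 5.84, adjusted p = 0.101, limma), the probe 645 bases downstream gave -0.97 (adjusted p = 0.0936), and the downstream probe was well above background on no array of either fraction. Of the Scn3a probes 50014 and 36640 bases upstream, the first differed by 0.39 (adjusted p = 0.559) and the second, well above background on no array, by -0.02 (adjusted p = 0.986). Medians were thus more than 4-fold apart for 2 of the 5 probes, the one with the hexamer and its nearest upstream neighbour. Scn1a had a second probe, at chr2:66173498-66173557 of mm9, which was well above background on no array (difference -0.02, adjusted p = 0.990).

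**Figure D3:**
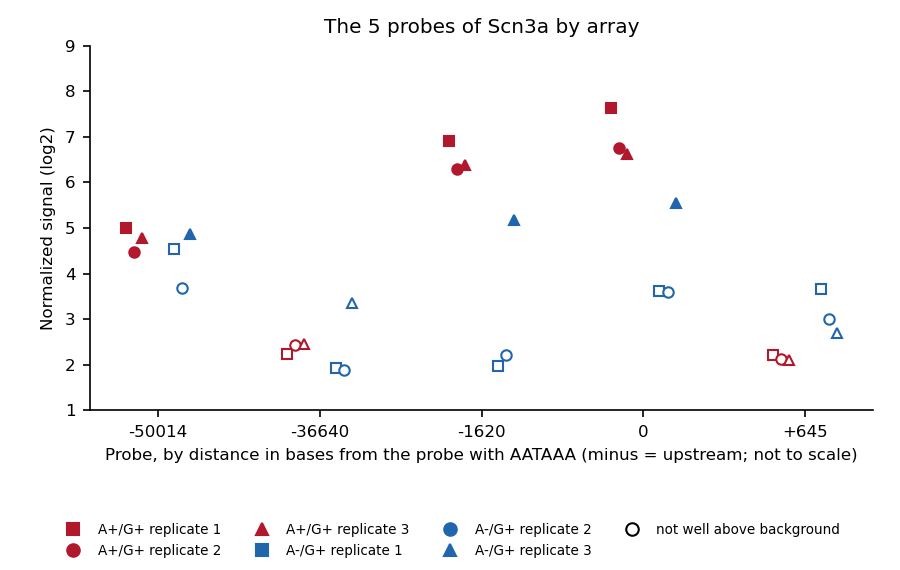
Normalized signal (log2, vertical axis) of the 5 Scn3a probes on each array, placed from upstream to downstream and named by their distance in bases from the probe with AATAAA, with open symbols for arrays not well above background. At 0 and 1620 bases upstream the A+/G+ arrays (red) lie above the A-/G+ arrays (blue), with A-/G+ replicate 3 (blue triangle) between them, and 645 bases downstream all symbols are open.

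Scn8a, the main subunit of axon initial segments in mature neurons, had its means the other way around. Its signal was well above background on all 6 arrays, between 6.86 and 7.16 in A+/G+ and between 7.35 and 8.46 in A-/G+, without overlap. The difference was -0.89 (95% interval -1.67 to -0.10, adjusted p = 0.164, limma) and did not pass. A second Scn8a probe, well above background on all arrays too, differed by -0.70 (adjusted p = 0.0911), and the mean over the 3 Scn8a probes by -0.71 (adjusted p = 0.0317). That mean includes the third Scn8a probe, which was well above background on no array (difference -0.53, adjusted p = 0.290). Without A-/G+ replicate 3 the brightest Scn8a probe differed by -1.16 (adjusted p = 0.0433). Scn7a, a sodium-sensing relative, and Scn9a, Scn10a and Scn11a, known from peripheral sensory neurons, were well above background on no array, so that their differences of -0.72 to 0.12 compare background signals, and an adjusted p of 0.0111 for Scn7a without A-/G+ replicate 3 does as well. Scn2a carries the name Scn2a1 on this array and is therefore outside the members; its difference was 1.21 (95% interval 0.50 to 1.92, adjusted p = 0.0649).

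Of the 18 calcium channel genes, 1 rose and 1 fell in A+/G+ at an adjusted p of 0.05, and 0 had medians 4-fold apart in either direction. Their median difference was 0.33. Of the calcium channel genes 8 of 18, and of the sodium channel genes 2 of 11, were well above background on all 6 arrays, against 39.3% of all gene names.

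The 4 alpha2delta subunits, which bring channels to the surface and to synapses, all had the higher mean in A+/G+, with differences of 0.47 to 1.06. Cacna2d3 gave 7.14, 7.001 and 6.93 in A+/G+ and 6.53, 5.99 and 6.07 in A-/G+. The fractions did not overlap and every array was well above background (difference 0.82, 95% interval 0.39 to 1.26, adjusted p = 0.0494, limma). The adjusted p of Cacna2d3 was close to the limit and rose to 0.0839 to 0.162 without any array other than A-/G+ replicate 1. It was 0.0563 with the 75th percentile shift, 0.0653 with a trend and robust fit in limma and 0.0962 with the methods' t-test. Cacna2d1 and Cacna2d2 are the subunits that gabapentin binds. Cacna2d1 overlapped, with A-/G+ replicate 3 at 8.03 among the A+/G+ arrays at 7.59 to 8.12 and the other A-/G+ arrays apart at 5.92 and 6.36 (difference 1.06, adjusted p = 0.390). Without A-/G+ replicate 3 the difference of Cacna2d1 was 1.69 (adjusted p = 0.0233). Cacna2d2 differed by 0.47 (95% interval -0.05 to 1.00, adjusted p = 0.264) and Cacna2d4, well above background on 1 array, by 1.03 (adjusted p = 0.321). Without A-/G+ replicate 1 the adjusted p of Cacna2d4 was 0.0293.

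The calcium channel beta subunits went in different directions, with a median difference of -0.27. Cacnb3, a beta subunit common in brain, was the channel gene that was higher in A-/G+: it gave 9.13, 9.05 and 9.03 in A+/G+ and 9.64, 9.52 and 9.74 in A-/G+. The step was small beside those of the sodium channel beta subunits, but the 3 values of each fraction lay close together and did not overlap (difference -0.56, standard error 0.077, 95% interval -0.76 to -0.36, adjusted p = 0.0200, limma), and all were well above background. Its adjusted p was 0.0743 with the 75th percentile shift, and 0.0508 to 0.0931 without any of the A+/G+ arrays or A-/G+ replicate 1. Cacnb2, the main beta subunit of heart muscle, was lower in A+/G+ on every array without passing (difference -0.90, 95% interval -1.80 to -0.001, adjusted p = 0.214), and without A-/G+ replicate 3 its adjusted p was 0.0345. Cacnb1, the beta subunit of skeletal muscle, differed by 0.02 with a narrow interval of -0.17 to 0.20, and Cacnb4, which is abundant in the adult cerebellum, by 0.81 with an interval of -0.41 to 2.03.

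**Figure D4:**
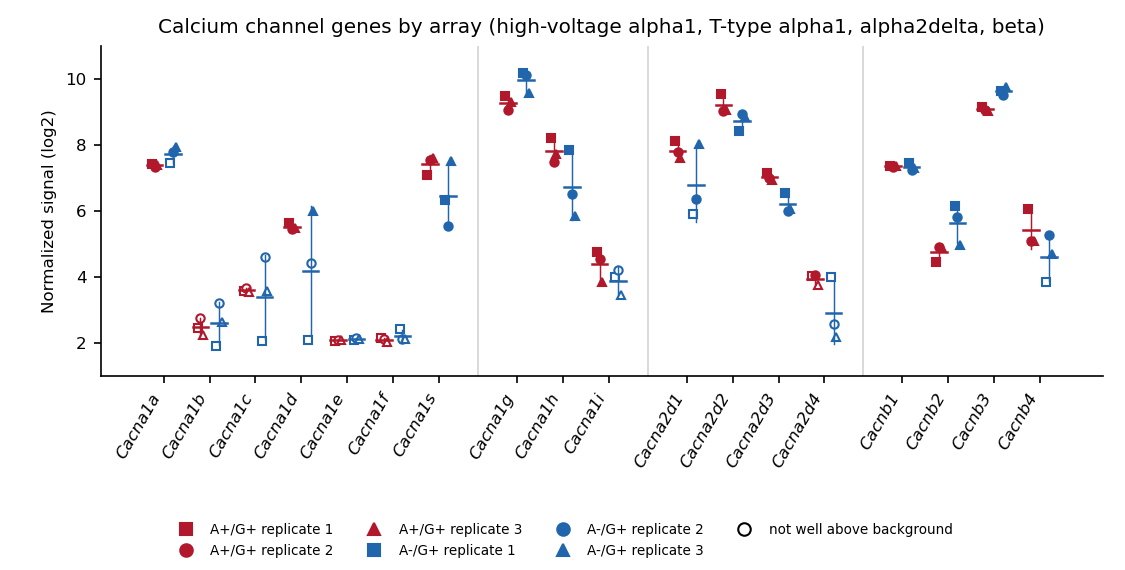
Normalized signal (log2, vertical axis) of the 18 calcium channel genes on each array, A+/G+ in red and A-/G+ in blue, with the mean and SD of each fraction (n = 3) as lines and open symbols for arrays not well above background. The 3 A-/G+ arrays of Cacnb3, at 9.52 to 9.74, lie above its A+/G+ arrays at 9.03 to 9.13, while the A-/G+ arrays of Cacna1d spread from 2.09 to 6.005.

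None of the 10 alpha1 subunits, which form the calcium pore, passed the adjusted p, and their median difference was 0.08. At an unadjusted p under 0.05 there was 1, Cacna1g. Cacna1g, a T-type channel that opens at low voltage, was well above background on all 6 arrays and did not overlap, at 9.05 to 9.48 in A+/G+ and 9.55 to 10.16 in A-/G+ (difference -0.67, 95% interval -1.23 to -0.12, adjusted p = 0.1396, limma). Without A-/G+ replicate 3 the difference of Cacna1g was -0.87 (adjusted p = 0.0350). Its second probe, 596 bases downstream, overlapped between the fractions (difference -0.29, adjusted p = 0.674). The other T-type genes were Cacna1h (difference 1.07, 95% interval -0.36 to 2.51) and Cacna1i (0.50, interval -0.35 to 1.35), and both overlapped, with Cacna1i well above background on no A-/G+ array. Cacna1h had 2 further probes upstream of its brightest, which were well above background on no array.

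Among the high-voltage subunits, Cacna1a, the P/Q-type pore of Purkinje cells, had a signal of 7.32 to 7.41 in A+/G+ and 7.43 to 7.93 in A-/G+ (difference -0.34, 95% interval -0.70 to 0.02, adjusted p = 0.241). Without A-/G+ replicate 1, which was also the only array on which this probe was not well above background, its adjusted p was 0.0432. The second probe of Cacna1a had its means the other way around and overlapped between the fractions (difference 0.65, 95% interval -1.01 to 2.32, adjusted p = 0.583). Cacna1d, an L-type pore of neurons and endocrine cells, was even in A+/G+ at 5.45 to 5.65 and spread over 2.09, 4.43 and 6.005 in A-/G+, so that its difference of 1.35 had an interval of -1.30 to 3.996. Without A-/G+ replicate 3 the difference of Cacna1d was 2.27 (adjusted p = 0.148). The second probe of Cacna1d, well above background on the same arrays, did not overlap between the fractions. It gave 4.63 to 5.01 in A+/G+ and 3.39, 4.51 and 4.55 in A-/G+ (difference 0.66, 95% interval -0.27 to 1.58, adjusted p = 0.375, limma). Cacna1s, the L-type pore of skeletal muscle, gave 7.08 to 7.60 in A+/G+ and 5.54 to 7.52 in A-/G+ (difference 0.94, 95% interval -0.44 to 2.33). Cacna1b (N-type), Cacna1c (the L-type pore of heart and brain), Cacna1e (R-type) and Cacna1f (retinal L-type) were well above background on no array.

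Over the whole family, all arrays of A+/G+ detected 19 of 29 genes and all arrays of A-/G+ 10 (detected meaning well above background), while 8 genes were detected on no array. These are 65.5%, 34.5% and 27.6% of the members, beside 52.0%, 39.4% and 41.4% of all gene names. Detection on the whole A-/G+ fraction without any A+/G+ array occurred for 0 of the 29 members, and the opposite case for 2, Scn4b and Cacna1i. Over all 34836 gene names these cases numbered 8 and 1046. The signal of Cacna1i overlapped between the fractions (adjusted p = 0.466, limma). Of 15 members whose fractions did not overlap, 7 had the higher signal in A+/G+ (24.1% of members) and 8 the lower (27.6%), beside 14.9% and 24.0% of all gene names. Of the 8, Scn7a, Scn10a and Cacna1e were detected on no array, so that they compare background signals. Among the 21 members detected on 1 or more arrays, 12 had fractions that did not overlap. The shares over all gene names include names detected on no array, so they cannot be set beside this count.

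The genes that work with these channels were mixed. Of 11 sodium channel partners, which anchor the channel or alter its gating, 2 rose and 1 fell in A+/G+ at an adjusted p of 0.05. Fgf14, an intracellular protein that binds the tail of sodium channels, passed both limits. Its signal was 5.93, 6.05 and 6.30 in A+/G+ and 1.96, 1.95 and 3.88 in A-/G+, where no array was well above background. The difference of Fgf14 was 3.50 (standard error 0.59, adjusted p = 0.0314, limma), and its A+/G+ mean lay 2.34-fold above the A-/G+ limit, set as for Scn4b. Of 5 sodium channel relatives outside the members, 1 passed in each direction. Of 23 calcium channel partners, 3 rose and 2 fell in A+/G+, and 1 in each direction met both limits. Cacng1, 1 of the 3, was well above background on no array. Stac2, an adaptor of L-type channels, differed by 2.28 (adjusted p = 0.0122), with 0 of 3 A-/G+ arrays well above background and an A+/G+ mean of 4.29 that lay under the A-/G+ limit, so that no fold is given, and Cacng5, which also serves AMPA receptors, by -2.06 (adjusted p = 0.00387). Of 21 genes of calcium release, entry and extrusion, 3 rose and 0 fell in A+/G+, and at an unadjusted p under 0.05 the counts were 8 and 3. Of 11 other voltage-gated cation channel genes, 0 passed, and 0 had an unadjusted p under 0.05.

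Some markers of cell types differed between the fractions as well. Of 10 Purkinje cell markers, 6 were higher in A+/G+ at an adjusted p of 0.05 (limma), 5 of them at both limits, and 0 were higher in A-/G+ (7 and 0 at an unadjusted p under 0.05). The 6 became 2 without A+/G+ replicate 3 and 3 without A-/G+ replicate 2. The list shares Itpr1 with that of calcium release, entry and extrusion. The median difference of the list was 2.77, and all 10 were well above background on every A+/G+ array. Pcp2 and Calb1 differed by 4.99 and 4.98. The list's summed signal was 5897 to 14844 on the A+/G+ arrays and 1976 to 2474 on the A-/G+ arrays, and 4 of the markers, Calb1, Car8, Skor2 and Foxp2, were well above background on no A-/G+ array. The part of Purkinje cells in the higher Scn4b and Scn2b of A+/G+ was not tested, nor was that of the removal of L1CAM+ and PSA-NCAM+ cells, which was applied to A-/G+ only. Of 14 pan-neuronal markers, 0 passed in either direction (4 and 1 at an unadjusted p under 0.05), which does not show equal levels. Their median difference was 0.72, with 10 means above and 4 below those of A-/G+. Toward A+/G+, medians lay 17.7-fold apart for Nefl, 9.12-fold for Nefm, 8.63-fold for L1cam and 5.66-fold for Stmn2. The adjusted p of these genes was 0.0760 to 0.131 (limma). The summed signal of the list was 14851 to 25279 in A+/G+ and 9877 to 17880 in A-/G+. For 11 of the 14 markers, Nefl, Nefm, L1cam and Stmn2 among them, A-/G+ replicate 3 was the highest of its fraction. Among the 29 channel genes that array was the highest of A-/G+ for 11, Scn1a, Scn3a, Scn3b, Cacna2d1 and Cacna1d among them, replicate 1 for 10 and replicate 2 for 8, while over all gene names replicate 3 was the highest for 27.3%.

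Other lists moved with the fractions too. Of ependymal cell markers 5 of 6 rose in A+/G+, of pericytes and smooth muscle 3 of 7, of endothelium 1 of 8 and of microglia 1 of 8. Of oligodendrocyte precursors 3 of 8 rose and 1 fell, and of astroglia 4 of 11 rose and 1 fell. Bergmann glia markers fell in 7 of 7. The paper had already named Mybpc1, Npy and Gria1 among its strongest A-/G+ hits on these arrays. It also listed Gdf10 and Wif1 among A-/G+ genes shared with Bergmann glia. The direction of these markers was thus known beforehand, and their share of the 7 is no independent result. Gria4 and Hopx, the rest of the list, differed by -1.36 and -1.42. Of 7 markers of GABAergic interneurons 2 rose and 2 fell in A+/G+, of 11 of granule neurons 0 and 2, and of 3 of erythroid cells 0 and 0 (3 and 0 at an unadjusted p under 0.05). All 11 astroglia markers were well above background on all 6 arrays. Defining markers that were so on no array were Gabra6 of mature granule neurons, Pax2 and Slc6a5 of interneurons, Neu4 of oligodendrocyte precursors, Myh11 of smooth muscle and Ptprc of microglia. The summed signal of A+/G+ against A-/G+ ranged from 5330 to 8967 against 468.0 to 1226 for ependymal cells, from 14069 to 17428 against 2278 to 4899 for oligodendrocyte precursors, and from 2918 to 3383 against 686.8 to 1141 for pericytes and smooth muscle. The part of these cell types in the channel genes was not tested, and leukocytes and red blood cells, too, had been removed from A-/G+ only.

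**Figure D5:**
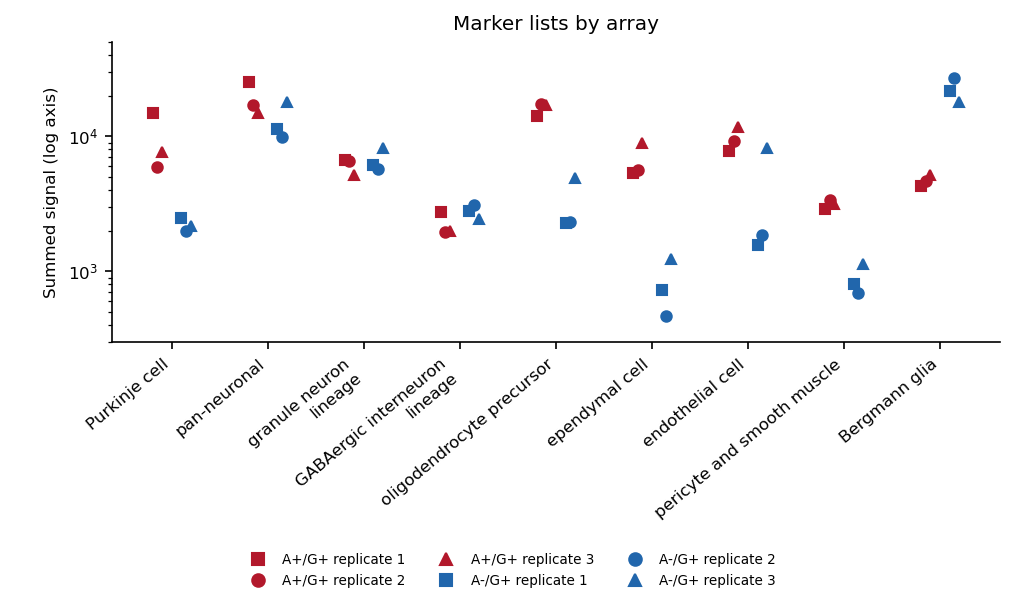
Summed normalized signal of 9 marker lists on each array (vertical log axis), A+/G+ in red and A-/G+ in blue, with squares, circles and triangles for replicates 1, 2 and 3. The Purkinje cell list lies at 5897 to 14844 in A+/G+ and at 1976 to 2474 in A-/G+, while the pan-neuronal lists of the fractions overlap.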

How the data were processed

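Cy3-labeled RNA of the 6 sorted samples was hybridized to Agilent 60-base mouse arrays. For each array the authors deposited the intensities of the scanner software (Agilent Feature Extraction 10.7.3.1), which had subtracted the background, and for the series a quantile-normalized log2 table with 38 empty cells, used as an alternative. Here the intensities were log2 transformed after removal of control spots and outlier-marked spots, then quantile normalized, and repeated spots were averaged by probe. limma 3.58.1 (R 4.3.3) compared the fractions across 55681 probes, where the study used a t-test. Dim probes were not removed, and the number of arrays limits the precision. In a simulation with 200 probes changed by 3 (log2), limma called 69% of these with 2 false calls. Its noise was normal, with the same spread in both fractions and no effect of the slide. These rates therefore need not hold for the real arrays. Members, 12 marker lists and 5 partner lists were chosen with earlier results of these data known. A pair of member genes and some marker genes are not reported here. Every other member is named, and values on each array are given where the adjusted p or the 4-fold limit was met. Positions are those of the array annotation (mm9). RefSeq (GRCm38.p6) listed all 29 member symbols and served for names, neighbours and promoters. Quantile normalization gives all arrays 1 distribution, although the A-/G+ arrays were dimmer. Alternatives are given in the closing section.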

Additional observations from a re-analysis of the deposited data

How the results depend on the processing

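Scn4b and Scn2b kept their direction and an adjusted p of at most 0.05 under all alternatives except the replicate block. The 75th percentile shift moved the median over all probes from -0.04 to -1.02. For A+/G+ 604 probes were called and for A-/G+ 938, where quantile normalization called 851 and 222. There 1 channel gene (1 probe) was called as before, while 2 and 0 channel genes passed the adjusted p in the 2 directions, and the median difference was 0.0348. Normexp background correction called 235 and 48 probes and 0 channel genes or channel probes in A+/G+, while 6 channel genes passed the adjusted p. The filter on dim probes called 3 channel genes and 4 channel probes, with a median difference of 0.810 over the 19 channel genes tested, of which 9 passed the filter through A+/G+ alone, so that these values follow from the filter and support no call. limma with a trend and robust fit called 2 channel genes and 2 channel probes. The methods' t-test called 487 and 121 probes, with 2 channel genes and 3 Purkinje genes past the adjusted p higher in A+/G+. Averaging all probes of a gene gave 2 channel genes higher in A-/G+ past the adjusted p, Cacnb3 and Scn8a. A 2-fold limit called 1797 and 1340 probes and 3 channel genes (3 probes) higher in A+/G+.

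Deviations of same-numbered samples from their fraction means correlated with r of 0.20, 0.11 and -0.11 over 17951 probes. Differently numbered samples gave r of -0.24 to 0.17. With 3 samples a fraction, these values cannot decide whether the numbers pair the samples. With the replicate number as a block, 0 probes were called in either direction, 0 channel genes or channel probes were called, 0 channel genes passed the adjusted p in either direction, and 0 Purkinje genes did. The lowest adjusted p of a channel gene under the block was 0.0630 (Scn4b). The slide could not be fitted as a block, since it coincides with the fraction.

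Leaving out each array in turn gave 340 to 1458 probes for A+/G+ and 77 to 490 for A-/G+, 1 to 3 channel genes and 1 to 4 channel probes called in A+/G+, 2 to 6 and 0 to 5 channel genes past the adjusted p in A+/G+ and A-/G+, a median difference of 0.14 to 0.48, and 2 to 6 Purkinje genes. The highest counts of probes and channel genes came without A-/G+ replicate 3. For the Purkinje genes, whose alternatives were chosen after seeing the data, the lowest count came without A+/G+ replicate 3 and a count of 3 without A-/G+ replicate 2.

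Of the channel genes that passed in neither setting, some changed sign. With the 75th percentile shift, Cacna1c was at -0.62 and Scn9a at -1.44. With normexp, Cacna1b was at 0.00455, Cacna1c at -0.0161, Cacna1e at 0.0278, Cacna1f at 0.00614, Scn11a at 0.063 and Scn3b at -0.0351. With the mean of all probes, Cacna1a was at 0.156 and Cacna1f at 0.00853. Leaving out each array moved Scn3b between -0.303 and 0.649, Cacna1b between -0.443 and 0.208, Cacna1c between -0.479 and 0.787, Cacnb1 between -0.0254 and 0.0745, Scn11a between -0.319 and 0.312 and Scn9a between -0.0386 and 0.203. The lower signal of the A-/G+ arrays sets the limit given for Scn4b, and a lower level than this limit could not be told apart from background.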
